A study of Schizosaccharomyces pombe with 39 samples.

Results

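The genes described are 43 ribosome biogenesis factors of the fission yeast Schizosaccharomyces pombe, measured by RNA sequencing of polyadenylated RNA. They are all rows whose gene name is utp, nop, noc, nog, nug, rpa or rrn followed by a number, 43 of the 6521 genes found in every deposited table. No nug gene is among them. The rule uses names and no measured value, but it was set with earlier results of these data known. The study has 39 libraries in 13 groups of 3. All strains lack mst2, which encodes a histone acetyltransferase. The degron strain also carries nmt81-epe1-3xFLAG-AID, in which a thiamine-repressible promoter drives epe1 and the protein has an auxin-inducible tag, together with skp1-OsTIR1 and skp1-AtTIR1-2NLS expressed from the adh15 promoter at ade6. Thiamine with 1-napthaleneacetic acid (+TN) depletes Epe1, a JmjC protein that counters heterochromatin. In the time course this strain was sampled at 0, 24, 48, 72, 96 and 120 h of +TN. A second set, the memory experiment, has untreated cells, cells after 120 h of +TN, cells 24 or 48 h after TN was removed, and cells given a second +TN for 24 h after the 24 h recovery. A strain with mst2 and epe1 both deleted, without TN, has 2 biological replicates of 3 libraries, kept here as 2 groups. All cultures were grown in EMMC to log phase at 32 C. No +TN library of a strain without the degron is among the 39, so the effects of TN itself and of Epe1 loss cannot be told apart. Nothing in the labels says that the 3 libraries of a group came from separate cultures, so p-values measure the spread between these libraries, which may be technical.

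Ribosome production begins in the nucleolus, where RNA polymerase I transcribes the ribosomal DNA into a long precursor. The small-subunit processome, built from the Utp proteins with their partners, assembles on this precursor as it is made. Small nucleolar ribonucleoproteins (snoRNPs) guide its chemical modification, and large-subunit factors of the Nop, Noc and Nog groups prepare the large subunit for export. In yeasts these genes are known to be transcribed together and to respond to growth conditions and nutrient supply. Of the 43 genes, 20 were placed with the small-subunit processome, 3 with the snoRNPs, 9 with the large-subunit factors, 5 with the subunits of RNA polymerase I and 6 with its transcription factors.

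The upstream regions of these genes were searched for letters known from yeast growth genes. In the 250 bases before each RefSeq gene start (assembly ASM294v3, 43 of 43 genes matched), the PAC core GATGAG was found on either strand in 3 of 43 genes (7.0%) against 6.8% of 5123 protein-coding genes. The RRPE core AAAATTTT was found in 4 genes (9.3%) against 7.0%, and the ribosomal protein gene box HomolD, CAGTCACA, in 1 gene (2.3%) against 2.6%. By comparison HomolD stood in 87 of 140 ribosomal protein genes (62.1%). The PAC genes were nop8, nop16 and rpa12, the RRPE genes nop2, utp7, utp22 and utp23, and the HomolD gene rpa49. All of these shares lie close to the share over all genes except that of the ribosomal protein genes for HomolD. Some gene spans used for the counts, in build ASM294v2, start earlier than those of RefSeq. That of rpa12 starts at 1039803, and its window here is 1039850 to 1040099. If positions match between the builds, such windows lie partly or fully within the counted gene and not upstream of it.

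Reading the windows showed another shared arrangement, in nop56 and nop9, which are described below, and in nop2. The words TATAGTGAT and GTATTGCT (capitals) follow each other on the gene's strand with 30 bases between them in all 3 genes, and start 144 to 154 and 105 to 115 bases before the gene start. The stretch from 180 to 81 bases before the RefSeq start is shown 5′ to 3′ for these 3 genes, at chrII:942454-942553, chrI:3245320-3245419 and chrII:3676705-3676804, all on the minus strand.
nop56: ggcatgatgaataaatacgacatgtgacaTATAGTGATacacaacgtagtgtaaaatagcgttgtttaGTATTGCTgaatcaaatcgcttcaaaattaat
nop9: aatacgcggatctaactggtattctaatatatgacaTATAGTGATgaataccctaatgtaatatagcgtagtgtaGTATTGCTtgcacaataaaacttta
nop2: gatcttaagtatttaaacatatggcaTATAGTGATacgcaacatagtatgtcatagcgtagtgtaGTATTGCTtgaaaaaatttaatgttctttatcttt
Across all 5123 protein-coding genes, searched on either strand, the first word occurs in 79 windows (1.5%), the second in 104 (2.0%) and both in 31 (0.61%), against 3 of 43 (7.0%) for each word here. Of those 31 genes, 29 have the same 30-base gap, and 3 of the 29 are among the 43 genes. The others include imp4, dbp10 and gar1, which are further biogenesis genes. They also include genes in none of the lists used below, such as atg4, vps28 and erg10. The words were picked after the sequences had been read, so these shares are a description and carry no test. The nop9 span used for the counts reaches position 3245369 in build ASM294v2. If positions match between the builds, part of the nop9 stretch shown lies within the counted gene.

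Time course libraries held 20347886 to 26976973 counts each, memory libraries 14781022 to 21626064 and deletion libraries 20733636 to 27900659. The lowest count of any of the 43 genes in any library was 213, so all 43 passed the filter on low counts in each fit. Levels below are CPM, each count as a share of its library's total after scaling by the TMM method, and differences are log2 fold changes with standard errors (SE) from edgeR's quasi-likelihood test, called at a Benjamini-Hochberg adjusted p under 0.05 over all genes tested. The sources used here do not state whether the counting separates strands. Of the 43 genes, 27 overlap another gene, 11 of them over most of their length. In the time course the thiamine-repressed transporter gene thi9 was at 627 to 681 CPM at 0 h and 47.8 to 53.3 CPM at 24 h. Counts of epe1 overlap prl67 and were 313 to 337 CPM at 0 h and 226 to 323 CPM at 24 h. Scaled with the deletion libraries they were 318 to 343 CPM at 0 h and 104 to 137 CPM in the deletion strain. In these bulk samples, fewer cells with a transcript and less of it per cell cannot be told apart.

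Per kilobase, the most abundant of these mRNAs at 0 h encode snoRNP core proteins. The small box H/ACA protein gene nop10 was at 428 CPM per kb, and nop56 and nop58, core proteins of box C/D snoRNPs, were at 325 and 282 CPM per kb. The GTPase gene nog1 followed at 192 CPM per kb. The lower end held polymerase I transcription factors, with rrn11 at 29.6, rrn6 at 27.2 and rrn5 at 26.4 CPM per kb, and the long processome scaffold gene utp20 at 11.1 CPM per kb. All of rrn5 lies under other annotated transcripts.

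The first comparison is of 24 h of +TN with 0 h. At 24 h, 30 of the 43 genes fell and 0 rose. Over all 6664 genes tested, 17.2% were called lower and 20.5% higher. The median log2 fold change of the 43 genes was -0.45, a level 26.7% lower, against 0.02 over all genes, and 41 of 43 values were negative. In 38 of 43 genes all 24 h libraries lay below all 0 h libraries, as they did in 25.1% of all genes. The falls were moderate in size, with values from -0.78 to 0.13. Each class had genes that fell except the polymerase I transcription factors.

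Among the small-subunit processome genes, 18 of 20 fell at 24 h, with a class median of -0.45. The gene utp14, for a processome protein that activates a helicase, was at 194, 188 and 235 CPM at 0 h and at 105, 133 and 147 CPM at 24 h. Its log2 fold change was -0.68 (SE 0.17, edgeR adjusted p 6.96e-03), and the groups do not overlap. The gene nop9, for a pumilio-like protein that binds pre-rRNA, was at 186, 189 and 221 CPM at 0 h and at 107, 129 and 145 CPM at 24 h. Its change was -0.65 (SE 0.18, edgeR adjusted p 1.28e-02), again without overlap. The t-UTP subcomplex, which in budding yeast links transcription of ribosomal DNA with processing, has 5 genes here, and 4 of them fell. One is utp10, at 179, 178 and 205 CPM at 0 h and 126, 139 and 160 CPM at 24 h, a change of -0.40 (SE 0.11). The others were utp4, utp8 and utp15, which fell by 0.52, 0.50 and 0.41 on the log2 scale, while utp5, at -0.31, did not pass the test. Over 70% of utp4 and utp5 lies under other annotated transcripts. The UTP-C gene utp22 was at 109, 112 and 115 CPM at 0 h and 84.4, 79.9 and 99.3 CPM at 24 h, a change of -0.35 (SE 0.10). The partner genes nop14 and noc4, whose proteins bind each other, fell to a similar degree. For nop14 the 0 h libraries read 152, 154 and 191 CPM and the 24 h libraries 108, 119 and 137 CPM, a change of -0.45 (SE 0.13). For noc4 they read 130, 128 and 137 CPM and 99.4, 93.1 and 103 CPM, a change of -0.42 (SE 0.12). The other gene of this class that did not pass was utp20, at -0.08 (SE 0.11).

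All 3 snoRNP genes fell at 24 h. The nop56 mRNA was at 543, 560 and 588 CPM at 0 h and at 345, 416 and 445 CPM at 24 h, a change of -0.49 (SE 0.17, edgeR adjusted p 0.0348). The nop58 mRNA was at 547, 571 and 633 CPM at 0 h and at 395, 426 and 498 CPM at 24 h, a change of -0.41 (SE 0.14). In both genes the 24 h libraries all lie below the 0 h libraries. The third gene, nop10, was at 163, 175 and 209 CPM at 0 h and at 119, 103 and 134 CPM at 24 h, a change of -0.62 (SE 0.15) with groups apart.

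Of the large-subunit factors, 5 of 9 fell. The gene noc1, for a protein of the Noc complexes that travel with pre-60S particles, was at 210, 212 and 238 CPM at 0 h and at 128, 152 and 168 CPM at 24 h, a change of -0.56 (SE 0.13). The rRNA methyltransferase gene nop2 was at 433, 437 and 489 CPM and then at 304, 333 and 382 CPM, a change of -0.41 (SE 0.12), and 60.0% of it lies under spt16 on the opposite strand. In both genes the groups are apart. The RNA-binding protein genes nop4 and nop12, and nop52, fell by 0.58, 0.52 and 0.52 on the log2 scale. The nucleolar GTPase gene nog1 was at 484, 492 and 508 CPM at 0 h and at 283, 409 and 378 CPM at 24 h. Its 24 h libraries are lower but spread widely, and its change of -0.47 (SE 0.21, edgeR adjusted p 0.0900) did not pass the test.

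For RNA polymerase I, 4 of 5 subunit genes fell, while 0 of the 6 genes for its transcription factors did. These 6 are all rrn genes, and of 8 other polymerase I genes given below 5 fell, spp27 among them. The gene rpa12, for a small subunit that takes part in RNA cleavage, was at 96.3, 105 and 110 CPM at 0 h and at 52.04, 61.54 and 68.27 CPM at 24 h. Its change of -0.78 (SE 0.21, edgeR adjusted p 1.09e-02) was the largest fall among the 43 genes. The gene for the second-largest subunit, rpa2, was at 263, 265 and 300 CPM and then at 162, 200 and 215 CPM, a change of -0.52 (SE 0.16). The stalk subunit gene rpa43, 90.5% of which lies under other annotated genes, was at 123, 119 and 136 CPM and then at 82.9, 90.9 and 107 CPM, a change of -0.43 (SE 0.15). In all 3 genes the groups are apart. The factor genes had a median of -0.11. The gene rrn3, whose protein recruits the polymerase to the promoter, was at 150, 149 and 161 CPM at 0 h and at 107, 135 and 130 CPM at 24 h, a change of -0.31 (SE 0.16, edgeR adjusted p 0.134) that did not pass the test. The core factor gene rrn7 was at 74.5, 75.8 and 72.0 CPM and then at 75.0, 74.9 and 78.3 CPM, a change of 0.04 (SE 0.05). Its groups overlap, and all of rrn7 lies under spc24 on the opposite strand. The difference between subunit and factor genes was not tested. Across the 43 genes the 24 h change had a Spearman correlation of -0.55 with CPM per kb at 0 h, a description. By that level all 6 factor genes, the highest being rrn3 at 59.1, lie below all 5 subunit genes, the lowest being rpa2 at 71.9. The part of level in the class difference was not tested.

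The count at 24 h rests on single libraries more than the direction does. Without 24 h replicate 1 it was 10 genes lower, without 24 h replicate 2 it was 16, and without 0 h replicate 3 it was 13. In each of these fits 41 of 43 values stayed negative, with medians from -0.35 to -0.43. Scaled by library totals, 22 genes fell and 1 rose, with a median of -0.37, while that scaling moved the median of all genes to 0.10. Among the 16 genes that overlap no other gene, 11 were called.

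**Figure D1:**
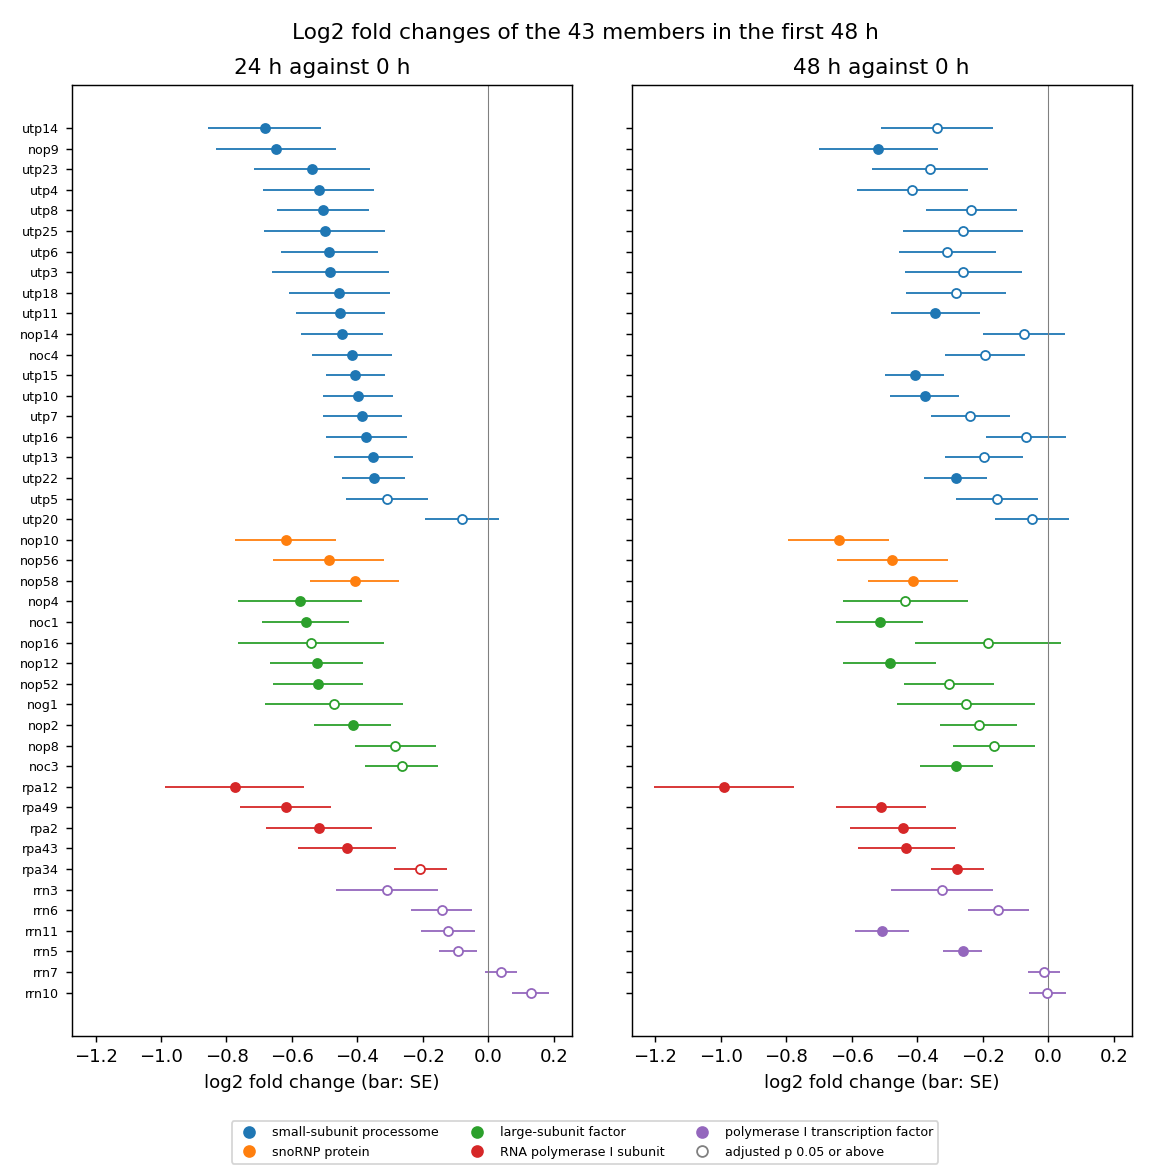
Log2 fold change (x axis) of each of the 43 genes (y axis, grouped and coloured by role) at 24 h (left) and 48 h (right) against 0 h, with standard errors as bars and filled points at an adjusted p under 0.05. At 24 h the points reach from -0.78 (rpa12) to 0.13 (rrn10), and at 48 h from -0.99 (rpa12) to -0.003 (rrn10).

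At 48 h, 18 of 43 genes were called lower and 0 higher, against 22.4% and 25.6% of all genes. The median was -0.28, a level 17.8% lower, and 43 of 43 values were negative. All 48 h libraries lay below all 0 h libraries in 25 of the 43 genes and in 30.1% of all genes. The comparisons at 24 and 48 h share the 0 h libraries. By class, 5 of 5 polymerase I subunit genes, 3 of 3 snoRNP genes, 3 of 9 large-subunit genes, 5 of 20 processome genes and 2 of 6 transcription factor genes fell. The gene rpa12 was at 69.7, 46.0 and 40.8 CPM at 48 h, a change of -0.99 (SE 0.21, edgeR adjusted p 1.53e-03). The gene nop10 was at 136, 108 and 106 CPM at 48 h against 163, 175 and 209 CPM at 0 h, a change of -0.64 (SE 0.15, edgeR adjusted p 3.32e-03). For nop9 the 48 h libraries read 170, 124 and 122 CPM, a change of -0.52 (SE 0.18, edgeR adjusted p 2.92e-02). In all 3 genes the 48 h libraries lie below those at 0 h.

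The core factor gene rrn11 was lowest at 48 h. It read 31, 29.3 and 28.54 CPM at 0 h, 25.7, 28.4 and 27.6 CPM at 24 h and 22.98, 20.02 and 19.48 CPM at 48 h. Its change was -0.51 (SE 0.08) at 48 h and -0.12 (SE 0.08) at 24 h, and its 48 h libraries lie below all those at 0 and 24 h. By contrast nop14 read 170, 150 and 151 CPM at 48 h, close to the lower 0 h libraries, a change of -0.07 (SE 0.12) that did not pass the test. The mean level was lowest at 24 h in 30 of the 43 genes, at 48 h in 12 and at 72 h in 1.

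Replicate 1 at 48 h stood apart from the other two. It held the highest value of the group in 42 of the 43 genes, and its median difference from the 0 h mean was -0.08, against -0.43 and -0.47 in replicates 2 and 3. Without it, 28 genes were called lower and the median was -0.45. Leaving out the second or the third 48 h library gave 9 or 8, and leaving out the third 0 h library gave 9. The library total scaling left 8 genes lower, with 38 of 43 values negative. The median was then -0.19, and that of all genes 0.09.

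**Figure D2:**
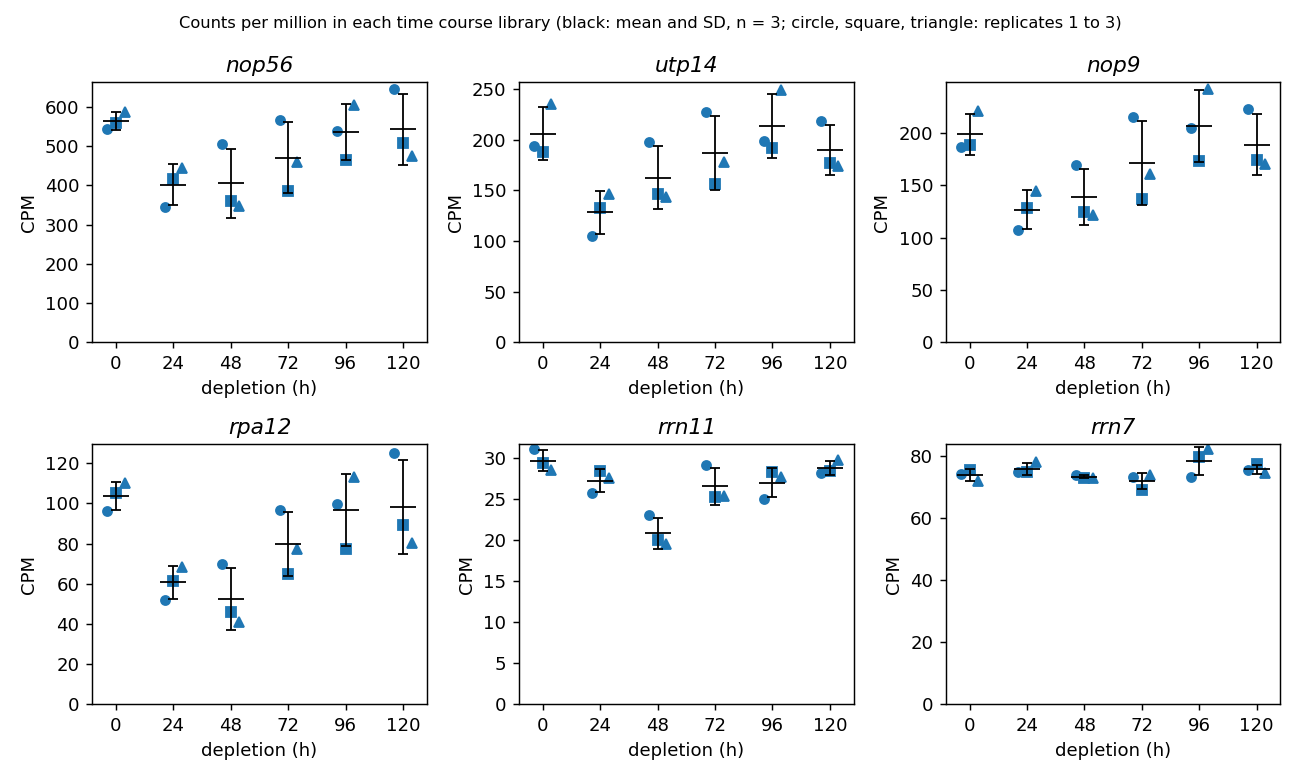
CPM (y axis, from 0) of 6 genes in each time course library against hours of depletion (x axis), with mean and SD in black (n = 3) and replicates as circle, square and triangle. The rpa12 libraries at 24 h lie between 52.04 and 68.27 CPM, below 96.3 to 110 CPM at 0 h, while those of rrn7 lie between 69.1 and 82.5 CPM throughout.

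From 72 h on no member was called against 0 h. At 72 h the median was -0.13, with 15.8% of all genes called in either direction. Of the 43 genes, 3 had an unadjusted p under 0.05 in edgeR, and DESeq2 called 0. Replicate 1 again held the highest value in 40 of the 43 genes, with library medians of 0.11, -0.34 and -0.19. Without it, 2 genes were called and the median was -0.26, while without 72 h replicate 2 it was -0.03 and without 0 h replicate 3 -0.08. Across the wider set of genes same-numbered libraries of 72 h and 0 h deviated together weakly, with correlations of 0.15 to 0.16. The 43 genes did not follow this, since at 0 h replicate 3 was the highest in 38 of them. With the replicate number as a block 1 gene was called. At 96 h the median was 0.05, against 12.5% of all genes called, with 1 gene under an unadjusted p of 0.05 and 0 by DESeq2, and 1 gene called without 96 h replicate 3. At 120 h it was -0.01, against 14.1% of all genes called, with 0 genes under an unadjusted p of 0.05 and 0 by DESeq2. The nop56 mRNA, as an example, read 566, 386 and 460 CPM at 72 h, 538, 465 and 606 CPM at 96 h and 646, 509 and 474 CPM at 120 h. The spread within these groups reaches up to and beyond the 0 h libraries.

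The step from 48 to 72 h was tested directly. Of the 43 genes, 2 rose and 0 fell, against 6.29% and 10.6% of all genes, and 41 of 43 values were positive with a median of 0.19. The genes were rrn11, at 29.1, 25.2 and 25.3 CPM at 72 h (change 0.35, SE 0.08, edgeR adjusted p 1.14e-02), and utp22, at 101, 90.7 and 84.9 CPM at 48 h and 123, 106 and 121 CPM at 72 h (change 0.34, SE 0.10, edgeR adjusted p 2.65e-02). In both the groups are apart. Same-numbered libraries of these groups deviated together, and with the replicate block 4 genes were called. Without 72 h replicate 1, 29 of 43 values were positive and the median was 0.06. It was 0.33 without 48 h replicate 1 and 0.30 without 72 h replicate 2. The count was 8 without 48 h replicate 1, 0 when either of the other 48 h libraries was left out, and 1 when the first or the third 72 h library was. It was also 0 in a fit of these 2 groups alone.

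**Figure D3:**
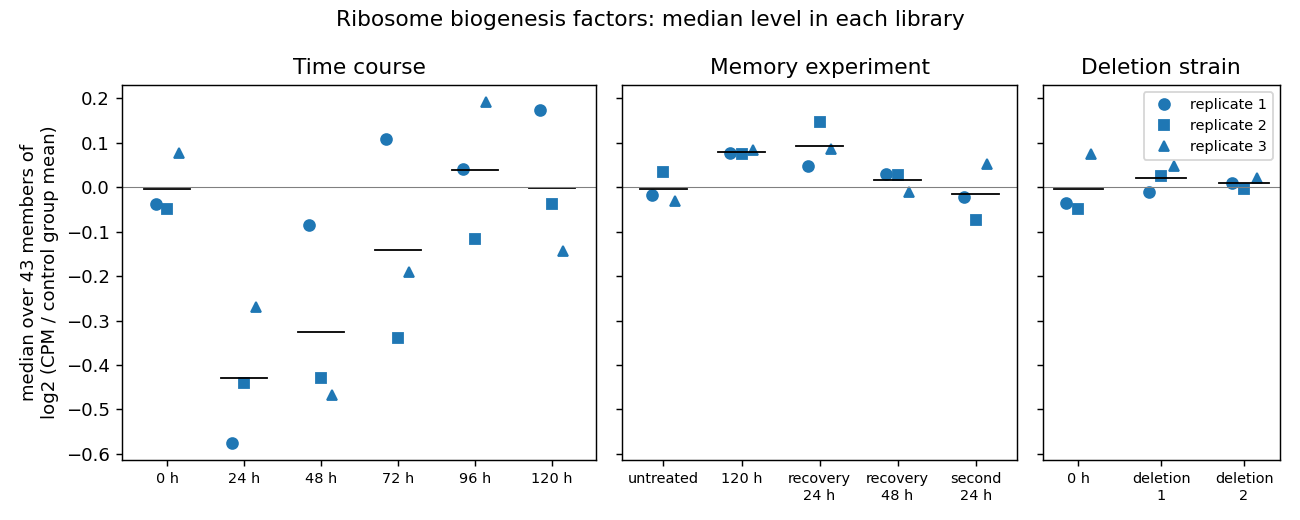
Median over the 43 genes of the log2 ratio of a library's CPM to the mean of its control group (y axis) for each library (points) by group (x axis), with the group mean as a line. The 24 h libraries lie at -0.57, -0.44 and -0.27, and the memory libraries between -0.07 and 0.15.

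Other genes of the growth machinery, in lists chosen with earlier results of these data known, also fell at 24 h. Of 58 further ribosome biogenesis genes measured, 45 fell and 0 rose, with a median of -0.53. Examples are lcp5 at -0.95, imp4 at -0.82 and erb1 at -0.82, which encode processome and pre-60S proteins. Of 128 ribosomal protein genes, 106 fell (median -0.44), and of 13 genes for RNA polymerase III subunits 10 fell (median -0.32). For 8 other polymerase I genes, 5 fell, among them nuc1, the largest subunit, at -0.46, ker1 at -0.84 and spp27 at -0.32. At 48 h 5 of these 8 were called lower, with spp27 at -0.71. The genes rpc19 and rpc40 are in both the polymerase I and the polymerase III list. The exosome trims the rRNA precursor, and 8 of its 13 genes fell while 1 rose. The TOR pathway and growth regulator list held 17 measured genes, of which 1 was lower and 0 higher at 24 h. The environmental stress list went the other way, with 8 of 17 genes higher and 1 lower. Of these, zym1, a metallothionein gene, had a log2 change of 3.86 and hsp16, a small heat shock gene, one of 2.86. At 48 h, 21 of the 58 biogenesis genes and 111 of the 128 ribosomal protein genes fell, and 11 of 17 stress genes rose while 1 fell. The part of the stress genes in the lower level of the 43 genes was not tested. In other comparisons the ribosomal protein genes had other values than the 43. In the second depletion against untreated cells 58 of 103 rose and 4 fell, against 22.7% and 22% of all genes. Their median was 0.79, against 0.00 for the 43 genes. The libraries of that comparison differed in scaling and in how counts followed GC content, as given below. The list values were not computed with a GC offset or with library totals. In deletion replicate 1 against 0 h 1 of 127 rose and 58 fell, against 17.2% and 15.6% of all genes. The median there was -0.24, against 0.02 for the 43 genes. These differences between lists were not tested.

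In the memory experiment, 120 h of +TN was compared with untreated cells. No member was called, against 6.15% of all genes, and the median was 0.09. Of the 43 genes, 3 had an unadjusted p under 0.05 in edgeR, and DESeq2 called 0. The nop56 mRNA was at 694, 711 and 718 CPM in untreated cells and at 812, 693 and 747 CPM after 120 h, with overlapping groups. All 120 h libraries lay above all untreated ones in 18 of the 43 genes and below them in 3. Over the 6485 genes tested they did so in 1109 and 1216. A fit of these 2 groups alone called 8 genes, and leaving out replicate 2 of the second depletion gave 1. The difference of the 120 h effect between the memory experiment and the time course was called for 0 of 43 genes, against 3.81% of all genes, with 0 under an unadjusted p of 0.05 and 0 by DESeq2. Its median was 0.11.

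After removal of TN few of the 43 genes passed the test against untreated cells. At 24 h of recovery 1 gene rose and 0 fell, against 0.925% and 2.11% of all genes. All recovery libraries lay above all untreated ones in 20 of the 43 genes and below them in 6, against 20.3% and 21.6% of all genes. The called gene was utp14, at 157, 164 and 151 CPM untreated and 199, 216 and 189 CPM after recovery, a change of 0.36 (SE 0.08, edgeR adjusted p 2.92e-02) with groups apart. The count fell to 0 without 24 h recovery replicate 1 or 2 or without any 1 of the 3 untreated libraries, and was 10 in a fit of these 2 groups alone. Against 120 h of +TN, 24 h of recovery called no member, against 4.73% of all genes, with 2 genes under an unadjusted p of 0.05 and 0 by DESeq2. At 48 h of recovery no member was called against untreated cells, with 2.42% of all genes called. There, 5 genes had an unadjusted p under 0.05, and DESeq2 called 1. The median was 0.02, with values from -0.63 for nop10 (SE 0.26, edgeR adjusted p 0.251) to 0.31 for rpa2 (SE 0.18, edgeR adjusted p 0.402). The nop10 libraries read 98.4, 96.7 and 53.0 CPM and those of rpa2 342, 334 and 462 CPM. In both genes replicate 3 is farthest from the untreated libraries. Across the 43 genes these changes had a Spearman correlation with GC content of 0.72 at 24 h and 0.73 at 48 h of recovery (n = 43 genes, a description, since the genes share libraries), and of 0.43 and 0.25 with an offset for GC in each library.

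**Figure D4:**
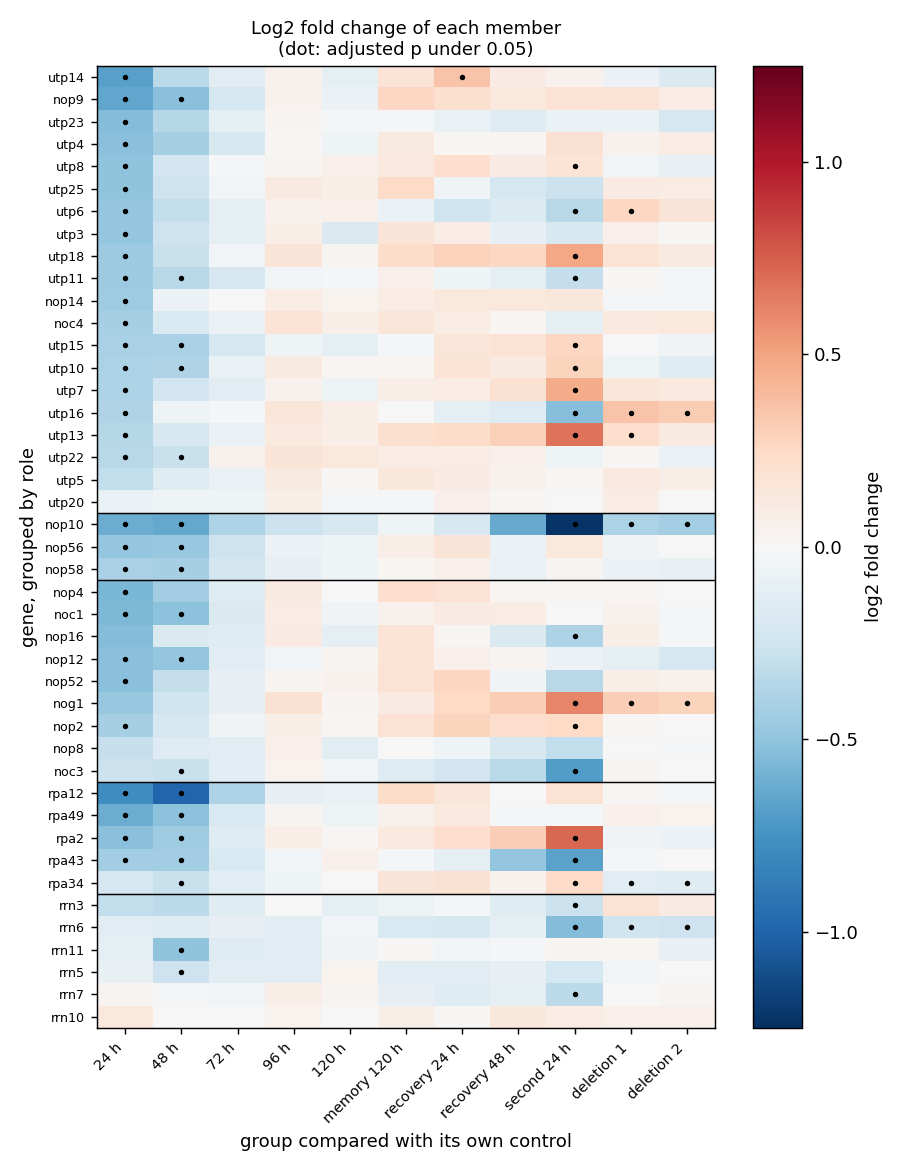
Log2 fold change (colour) of each gene (rows, grouped by role) in 11 groups against their own control (columns), with a dot at an adjusted p under 0.05. The columns at 24 and 48 h are negative in 41 and 43 of 43 genes, while the second depletion has 10 genes higher and 10 lower.

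The second depletion of 24 h, against untreated cells, called the 43 genes about as often as all genes. Of the 43, 10 rose and 10 fell, against 22.7% and 22% of all genes, and the median was 0.00. The groups were apart in 13 genes above and 13 below, against 27.4% and 30.1% of all genes. The rises were led by rpa2, utp13 and nog1. The rpa2 mRNA was at 296, 312 and 308 CPM untreated and at 380, 659 and 472 CPM in the second depletion, a change of 0.72 (SE 0.18, edgeR adjusted p 7.97e-03). The UTP-B subcomplex gene utp13 was at 156, 166 and 158 CPM and then at 195, 335 and 241 CPM, a change of 0.68 (SE 0.15). For nog1 the values were 612, 681 and 647 CPM and then 728, 1271 and 960 CPM, a change of 0.61 (SE 0.19). In all 3 genes replicate 2 is the highest and the groups are apart. That library had a TMM factor of 0.63, against 0.88 to 1.12 in the other memory libraries. A lower factor raises every CPM of a library, and results with library totals are given below.

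The falls were led by nop10, noc3 and rpa43. The nop10 mRNA was at 132, 130 and 122 CPM untreated and at 75.8, 35.6 and 51.5 CPM in the second depletion, a change of -1.23 (SE 0.26, edgeR adjusted p 4.36e-03). The gene noc3, for a Noc complex protein, was at 164, 154 and 149 CPM and then at 124, 62.9 and 99.3 CPM, a change of -0.70 (SE 0.19), and lies fully under SPBC887.02 on the opposite strand. For rpa43 the values were 127, 131 and 131 CPM and then 92.4, 75.6 and 75.6 CPM, a change of -0.67 (SE 0.15). All 3 groups are apart, and for nop10 and noc3 replicate 2 is the lowest. The nop56 mRNA, at 697, 864 and 763 CPM, and nop14, at 171, 176 and 188 CPM, did not pass the test, with changes of 0.13 and 0.14.

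GC content moved with these values. The 43 genes range from 31.7% to 40.9% GC, with a median of 36.6%. Across them, the change in the second depletion had a Spearman correlation of 0.78 with GC, also a description. The gene with the highest GC is rpa2 at 40.9%, and the gene with the lowest is nop10 at 31.7%. Of the 22 genes at or above the median GC, 9 rose and 0 fell, and of the 21 below it 1 rose and 10 fell. At 24 h of the first depletion the correlation was -0.21. Libraries of the memory experiment differed in how the counts of all genes followed GC, with Spearman's rho from -0.59 to 0.68 across 6380 genes, and the second depletion libraries had -0.00, 0.68 and 0.54 while the untreated libraries had -0.50 to -0.46. With an offset for GC in each library the correlation was 0.11, and 6 genes rose and 8 fell. In that fit 11 of the 43 values changed sign, among them nop56, which was called lower (-0.26), and rrn3, which was no longer called (0.06). A fit of the 2 groups alone called 3 genes, and scaling by library totals called 3 higher and 2 lower, with 38 of 43 values negative and a median of -0.26. That scaling moved the median of all genes to -0.30, close to that of the 43 genes. The count was 6 without second depletion replicate 2, 12 without replicate 3, and 6, 9 and 7 without untreated replicate 1, 2 and 3.

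**Figure D5:**
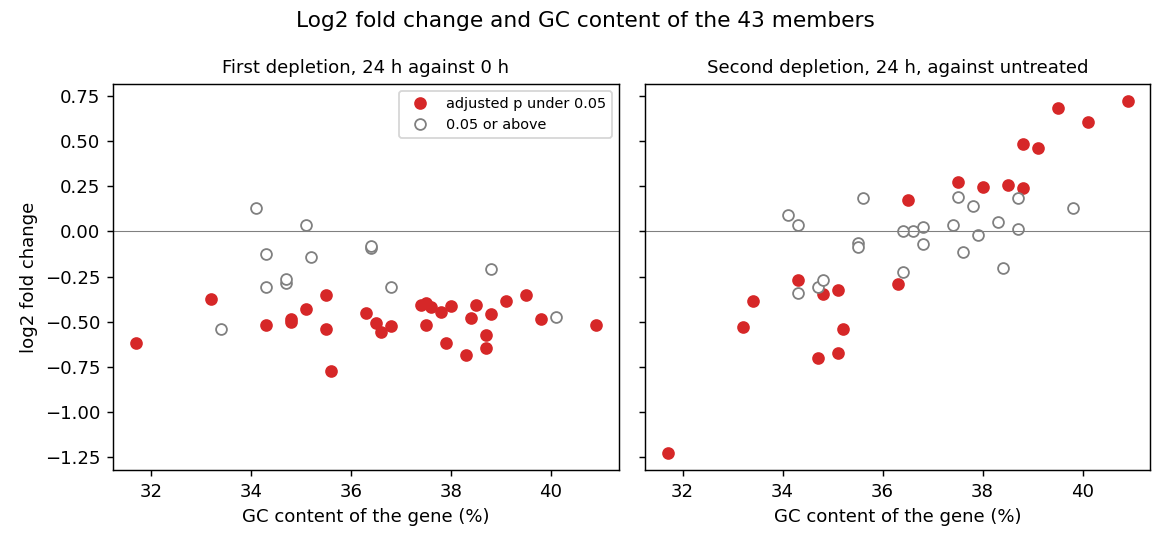
Log2 fold change (y axis) against the GC content of the gene in percent (x axis) for the 43 genes, at 24 h of the first depletion against 0 h (left) and in the second depletion against untreated cells (right), red where the adjusted p is under 0.05. On the right the values climb from -1.23 for nop10 at 31.7% GC to 0.72 for rpa2 at 40.9% GC, and on the left 41 of 43 lie below 0.

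Against the preceding 24 h recovery, 2 genes rose and 6 fell in the second depletion, against 16.3% and 11.5% of all genes, with a median of -0.09. The nop10 mRNA was at 121, 96.3 and 117 CPM in recovery, giving a change of -1.03 (SE 0.26, edgeR adjusted p 1.37e-02). For nop52 the values were 84.7, 84.7 and 87.9 CPM in recovery and 68.3, 38.6 and 60.8 CPM after, a change of -0.61 (SE 0.17, edgeR adjusted p 1.96e-02). For rpa43 they were 127, 105 and 127 CPM in recovery, a change of -0.56 (SE 0.15, edgeR adjusted p 1.56e-02). In all 3 genes the groups are apart. Same-numbered libraries of these groups deviated together, and with the replicate block 4 genes were called, all lower. With the GC offset 1 gene rose and 8 fell. The count was 0 with library totals or with these 2 groups alone. It was 19 without second depletion replicate 1, 4 and 3 without its replicates 2 and 3, 2, 4 and 2 without recovery replicates 1, 2 and 3, 5 without 48 h recovery replicate 1, and 4 without any 1 untreated library or memory 120 h replicate 3.

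The effect of 24 h of +TN was then compared between the second and the first depletion in 1 fit of all degron libraries. The first depletion is found only in the time course and the second only in the memory experiment. Order of depletion and experiment therefore cannot be told apart. The starting points also differ, never treated cells for the first and cells after 24 h of recovery for the second. The second effect was higher for 14 of 43 genes and lower for 0, against 14.7% and 11.5% of all genes. The median difference was 0.40, against -0.04 over all genes, and 35 of 43 values were positive. The largest differences were 1.04 for rpa2 (SE 0.25, edgeR adjusted p 4.90e-03), 0.85 for nog1 (SE 0.29, edgeR adjusted p 3.45e-02) and 0.82 for utp13 (SE 0.20, edgeR adjusted p 6.05e-03). The difference followed GC across the 43 genes, with a Spearman correlation of 0.73, and 12 of the 14 genes had GC at or above the median. With the GC offset this correlation was 0.09, 12 genes were higher and 0 lower, and 41 of 43 values were positive. With library totals 3 genes were higher, 23 of 43 values were positive and the median was 0.10, while that of all genes was -0.31. The count was 7 without 0 h replicate 3, 6 without 24 h replicate 1, 8 without 24 h recovery replicate 1 and 8 without second depletion replicate 2.

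The deletion strain differed from the 0 h degron cells in few of these genes. The 0 and 120 h libraries were scaled together with the deletion libraries here, so their CPM differ slightly from those above. Strain and table differ together in this comparison and cannot be told apart. In biological replicate 1, 4 genes were higher and 3 lower, against 17.2% and 15.6% of all genes. In biological replicate 2, 2 were higher and 3 lower, against 16.5% and 14.8%. Both comparisons share the 0 h libraries. The gene utp16, for a processome factor, was at 73.3, 75.5 and 68.7 CPM at 0 h, at 94.1, 90.6 and 93.5 CPM in replicate 1 and at 90.6, 87.3 and 93.7 CPM in replicate 2. Its changes were 0.35 (SE 0.08, edgeR adjusted p 4.40e-03) and 0.32 (SE 0.08, edgeR adjusted p 8.65e-03). An antisense transcript covers most of utp16. The nop10 mRNA read 166, 178 and 212 CPM at 0 h, 143, 145 and 134 CPM in replicate 1 and 145, 126 and 145 CPM in replicate 2, with changes of -0.40 and -0.42 (SE 0.10 each). For both genes the deletion libraries lie apart from those at 0 h. The other named changes were small: nog1 0.30 and 0.28, rrn6 -0.24 and -0.26, rpa34 -0.13 and -0.15, and, for replicate 1, utp6 at 0.26 (its value in replicate 2, 0.16, did not pass). All of rpa34 lies under sme1 on the opposite strand. For biological replicate 1 the count was 11 without 120 h replicate 1 or with its 2 groups alone, 4 when the first or the third 0 h library or its own first library was left out, and 3 when the second 0 h library or either of its other libraries was. For biological replicate 2 it was 11 without 120 h replicate 1, 9 with its 2 groups alone, and 3 when the third 0 h library or any 1 of its own was left out.

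Against 120 h of +TN in the time course, the mean of the deletion groups was higher in 5 genes and lower in 5, with 20.7% and 21.7% of all genes called. Of the called genes, those with groups apart were rrn6 (-0.22), rpa34 (-0.14) and utp10 (-0.13), while nop12 (-0.21) and utp22 (-0.16) fell with groups that overlap. The genes called higher were rrn3 (0.26), utp16 (0.26), nog1 (0.25), utp3 (0.22) and utp7 (0.19), also with overlap. The nop10 groups were apart, at 126 to 145 CPM in the deletion strain and 148 to 186 CPM at 120 h, but its value of -0.21 (edgeR adjusted p 0.0790) did not pass the test. Without 120 h replicate 1 the count was 24, and without 120 h replicate 2 it was 2. That first library held the highest value of its group in 37 of the 43 genes.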

How the data were processed

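Polyadenylated RNA libraries were deposited by the authors as whole-number counts per gene in 3 tables, and per the submitters' processing notes the tools were Trimmomatic and STAR with genome build ASM294v2. The counting tool and use of strand are not given in the sources used here. Of 45 sample columns, 6 could be tied to no sample and stayed out. The column index was read as the replicate number. Counts were tested here with edgeR 4.0.16 in R 4.3.3 (TMM, filterByExpr, robust quasi-likelihood, 2-sided, Benjamini-Hochberg adjustment) in fits of the time course, the memory experiment, the deletion strain with the 0 and 120 h libraries, and all degron libraries. The code was tested on simulated data. CPM and standard errors were computed from these fits. DESeq2 1.42.0 and other settings served as alternatives. For the second depletion libraries the treatment label reads "-", and the titles were followed.

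Same-numbered libraries were taken as paired where the correlations of their deviations all exceeded 0.1, which held for 72 h with 0 h (0.15 to 0.16), 72 h with 48 h (0.44 to 0.74), 48 h recovery with untreated (0.13 to 0.22) and second depletion with 24 h recovery (0.14 to 0.49). Within groups no pair of libraries was a duplicate (39 pairs, lowest chi-squared per degree of freedom 3.59). Of 6745 identifiers, 6626 matched RefSeq, which supplied GC content. Named genes are 12 representatives plus, per comparison, up to 3 largest rises and falls among called genes with groups apart and a mean of at least 5 CPM. Examples from other lists were chosen after their values were seen. The genes and lists were chosen with earlier results of these data known.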

Additional observations from a re-analysis of the deposited data

Results flagged for a closer look

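The effect of the second 24 h depletion (against 24 h recovery) minus that of the first (against 0 h) differed from 0 by edgeR's test, with Benjamini-Hochberg adjustment, in 14 genes. The log2 differences were 1.04 for rpa2, 0.85 for nog1, 0.82 for utp13, 0.82 for rpa12, 0.77 for utp7, 0.70 for utp4 and 0.67 for utp18. They were 0.65 for nop9, 0.53 for utp15, 0.51 for utp10, 0.50 for rpa49, 0.48 for utp8, 0.47 for noc1 and 0.47 for nop14. All 14 differences were positive, and 14.7% of all genes were called higher. The first of these depletions had lowered all of them except nog1, which did not pass the test at 24 h. A fall in the first depletion itself raises this difference, and 30 of the 43 genes fell there, so that overlap is no separate result. Each depletion comes from its own experiment, so order and experiment cannot be told apart. The difference moved with GC content, and its part in the result was tested only by the offset, under which 12 genes were called. All of rpa49 lies under SPAC2F3.02 on the opposite strand.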

How the results depend on the processing

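Counts are of the 43 genes called. The medians at 24 and 48 h were negative under each alternative run. Restricting to the 16 genes that overlap no other gene, which lowers counts by construction, gave 11 (24 h), 8 (48 h), 1 (72 against 48 h), 0 (24 h recovery), 6 and 4 (second depletion against untreated and against recovery), 4, 3 and 3 (deletion replicate 1, replicate 2 and mean against 120 h) and 6 (second minus first effect). With library totals the counts were 8 (48 h), 0 (24 h recovery), 5 and 0 (second depletion against untreated and recovery) and 3 (second minus first). With DESeq2 they were 4 (72 against 48 h), 3 (24 h recovery) and 1 (48 h recovery). With the replicate block they were 1 (72 h), 4 (72 against 48 h) and 4 (second depletion against recovery). With the GC offset they were 1 (memory 120 h), 2 (48 h recovery) and 1 (24 h recovery against 120 h). With GC offset and replicate block they were 1 (72 h), 4 (72 against 48 h), 1 (memory 120 h), 2 (24 h recovery), 2 (48 h recovery), 11 (second depletion against untreated) and 4 (deletion replicate 1). With the compared groups only they were 0 (72 against 48 h), 8 (memory 120 h), 10 (24 h recovery), 3 and 0 (second depletion against untreated and recovery), 11 and 9 (deletion replicates 1 and 2). The replicate block moved no other count by over 1.5 times, and the numbers did not pair the samples elsewhere.

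Leaving out 1 library at a time gave 10 to 34 (24 h), 8 to 28 (48 h), 0 to 2 (72 h), 0 to 1 (96 h), 0 to 8 (72 against 48 h), 0 to 1 (memory 120 h and 24 h recovery), 6 to 27 and 2 to 19 (second depletion against untreated and recovery), 3 to 11 (either deletion replicate), 2 to 24 (mean against 120 h) and 6 to 20 (second minus first). In the second depletion against untreated, 18 of the 43 log2 changes took the other sign with library totals and 11 with the GC offset, with or without the block. Of the 15 genes followed singly, those that were also called in either fit were nop2 (-0.0369) and utp10 (-0.0251) with library totals, and with the GC offset nop56 (-0.26, and -0.27 with the block) and rrn3 (0.0552, and 0.0544 with the block). Where no cause is named, the cause was not tested. The lowest count behind any value was 213.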
